A study of Homo sapiens with 12 samples.

Results

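The genes that encode the translation initiation factors were taken from both deposited tables as the protein-coding rows whose symbol starts with EIF and a digit from 1 to 6, with the EIF4EBP and EIF2AK genes left out. The rule used no measured value. It found 49 genes among the 60612 rows of the HCCLM3 table and 48 among the 32507 rows of the LX2 table. By factor these are 14 genes of eIF3, 13 of the eIF4 group, 6 of eIF2 and initiator tRNA delivery, 6 of eIF5, eIF5A, eIF5B and eIF6, 5 of eIF1 and eIF1A, and 5 of eIF2B. EIF4E1B had no row in the LX2 table and 0 counts in each of the 6 HCCLM3 libraries, which allows up to 3 counts per library. EIF1AY, which is on the Y chromosome, is counted, but its levels are not given.

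Initiation brings the small ribosomal subunit, the initiator tRNA and an mRNA together at a start codon. eIF2 carries the initiator tRNA and eIF2B reloads eIF2 with GTP, eIF1, eIF1A and eIF3 bind the small subunit, and the eIF4 factors recruit it to the capped mRNA end. eIF5 and eIF5B act when the start codon has been found and the large subunit joins. In liver cancer cells and other fast-growing cells these factors are known as a point where growth signals and stress signals set the rate of protein synthesis.

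RNA was sequenced from 12 libraries of human cells grown in a chip device. HCCLM3 is a hepatoma line, and LX2 derives from hepatic stellate cells, the matrix-producing cells of the liver. The 4 groups, of 3 libraries each, are HCCLM3 alone, HCCLM3 with LX2, LX2 alone and LX2 with HCCLM3. All 4 are labelled as WT genotype, and no time in culture, dose or agent is named beside the culture itself. The labels and protocols used here do not say how the lines were parted before RNA extraction. Nor do they say that replicates were separate cultures, and all p-values therefore refer to the spread of the sequenced libraries, part or all of which may be technical.

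Libraries held 61836616 to 77712308 counts. Grown alone, HCCLM3 carried 388768 to 462959 counts on 4 epithelial markers against 10344 to 10901 in LX2, but of 6 hepatocyte markers only 1 was at 1 FPKM or more in HCCLM3 alone. Of 9 stellate and fibroblast markers, LX2 alone carried 62032 to 79168 counts, with COL1A2, COL6A3 and SPARC at 0. Most of them were on VIM, at 74615, 58578 and 75355. COL6A3, LUM and SPARC had more counts in HCCLM3 alone than in LX2 alone, and VIM, COL1A1, PDGFRB and ACTA2 fewer. Co-cultured HCCLM3 differed from HCCLM3 alone in markers of other cells: 6 red cell genes summed to 0 to 6 counts alone and 6468 to 8961 in co-culture, 10 leukocyte and granulocyte genes to 109 to 145 and 1576 to 1886, and the epithelial markers to 203263 to 263292 in co-culture. The stellate list summed to 7167 to 8975 counts in HCCLM3 alone and 4971 to 9217 in co-culture, most of them on COL6A3 and LUM. Within it 3 HCCLM3 libraries stood apart, alone replicate 3 and co-cultured replicates 2 and 3: COL1A1 was counted 16, 20 and 541 times in the libraries alone and 21, 356 and 1448 times in those with LX2, COL1A2 0, 0 and 502 and 0, 320 and 853 times, and SPARC 93, 88 and 191 and 42, 146 and 610 times. In LX2 the red cell genes summed to 6 to 15 counts alone and 4 to 112 in co-culture, and the leukocyte genes to 194 to 236 and 122 to 164. Some genes that HCCLM3 expresses were higher in co-cultured LX2. COL6A3 had 0 counts in all 3 libraries alone and 160, 134 and 153 in co-culture, and HNF4A 0, 4 and 0 and 44, 53 and 77. KRT8 had 1540, 1488 and 1631 alone and 2200, 2647 and 2412 in co-culture. Others were not higher: LUM had 240, 174 and 213 alone and 61, 46 and 65 in co-culture. KRT18 had 8727, 8671 and 9019 alone and 6817, 7404 and 7636 in co-culture, and AFP stayed at 0. The 6 hepatocyte markers summed to 12 to 49 counts alone and 44 to 85 in co-culture. These ranges overlap, and most of the co-culture sum was HNF4A. The part of these transcripts in the results for the initiation factors was not tested, and in bulk libraries fewer cells of a type and less RNA per cell cannot be told apart.

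In HCCLM3 grown with LX2, 20 of 48 tested initiation factor genes fell against HCCLM3 alone, 27 were not called, and EIF5B, which encodes the GTPase of subunit joining, fell furthest. In LX2 grown with HCCLM3 genes moved in both directions, with EIF1, a guardian of start codon choice, and EIF2S2, a subunit of eIF2, rising most. The 20 that fell in HCCLM3 and the 1 that rose, EIF4A2, were called by the quasi-likelihood test of edgeR at a threshold of 0.05, after Benjamini-Hochberg adjustment over all genes tested. The falls are 41.7% of the members, where 11.6% of all 18045 genes tested were lower, 10.1% higher and 21.7% called in either direction. Most members are abundant, and of 8232 protein-coding genes with a mean of at least 1000 counts 21.8% were lower, 8.79% higher and 30.6% called. The median log2 fold change was -0.32 over the members and 0.033 over all genes. Of the libraries that stood apart in stellate markers, leaving out alone replicate 3 gave 18 falls, co-cultured replicate 2 gave 15 and co-cultured replicate 3 gave 13, with no rise in each, in tests on fewer libraries. With EIF3C and EIF3CL and other copies summed 19 fell. Of 47 tested members in LX2, 13 rose and 7 fell, with a median log2 fold change of 0.0044 beside 0.015 over all genes. Of all 19671 genes tested there 15.4% were higher, 16.6% lower and 31.9% called, and of 8916 abundant protein-coding genes 18.9% were higher, 26.2% lower and 45.1% called, so the members' share of 42.6% called in LX2 was near that of genes as abundant.

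Counted as a share of each library, the members took 1.17% ± 0.0341 (SD, n = 3) of counts in HCCLM3 alone and 0.955% ± 0.0192 in co-culture, and 1.03% ± 0.0156 in LX2 alone and 1.09% ± 0.0101 in co-culture. The groups did not overlap in either line, and the exact two-sided permutation test gave p = 0.1 in both, the smallest that 3 libraries against 3 allow. The summed level of the 14 eIF3 genes was 814, 769 and 788 FPKM (fragments per kilobase of transcript, scaled to the library) in HCCLM3 alone and 629.9, 605 and 625 FPKM in co-culture. Co-cultured libraries were all the lower ones. In LX2 the same sum was 692, 676 and 691 FPKM alone and 715, 735 and 724 FPKM in co-culture, with no overlap and the opposite order. The sum counts EIF3C and EIF3CL, which encode the same subunit, as 2 genes. By gene, 7 of the 14 had a log2 fold change above 0 in LX2 and 7 below, with a median of 0.030. The LX2 sum is thus not a rise of the eIF3 genes as a whole. The 6 genes around eIF2 summed to 224, 222 and 224 FPKM in HCCLM3 alone and 169.5, 167 and 172 FPKM in co-culture, and to 299.9, 304 and 294 FPKM in LX2 alone and 358, 359 and 362 FPKM in co-culture. The eIF2 sum thus moved in opposite directions in the lines by more than its replicates spread. Most of both changes in the sum lay in 1 gene, EIF2S2. By gene, 5 of the 6 had a log2 fold change below 0 in HCCLM3, with 2 called lower. In LX2 4 were above 0 and 2 below, with 2 called higher. The eIF1 and eIF1A genes summed to 147, 138 and 140.4 FPKM in HCCLM3 alone and 163, 161 and 160.7 FPKM in co-culture, and to 124, 123.7 and 122 FPKM in LX2 alone and 159.7, 163 and 159 FPKM in co-culture. Here summed FPKM were higher in co-culture in both lines. In HCCLM3 this is not a rise of the group by gene. In the tests 2 of its 5 genes had a log2 fold change above 0 and 3 below, with a median of -0.22. There 1 gene was called lower and 0 higher.

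Scaling mattered in HCCLM3. Tests were scaled by TMM, which sets library sizes from the bulk of genes, while FPKM are relative to the whole library. With library totals in place of TMM, the median over all genes moved from 0.033 to 0.21 and the members split into 14 lower and 5 higher, the 5 being EIF1, EIF1B, EIF2B1, EIF4A2 and EIF4E3. No called member changed sign, and 9 members that were not called went from below to above 0 with the shift (EIF2B4, EIF2B5, EIF2D, EIF2S3, EIF3K, EIF4A1, EIF4A3, EIF4E2 and EIF4ENIF1). The falls of EIF1AX, EIF3D, EIF3J, EIF3L, EIF3M and EIF4H were no longer called. Nor were they in the limma fits on FPKM, apart from EIF3L in the one without a filter. In LX2 the same change moved the median of all genes to 0.044, with 14 members higher and 6 lower.

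**Figure D1:**
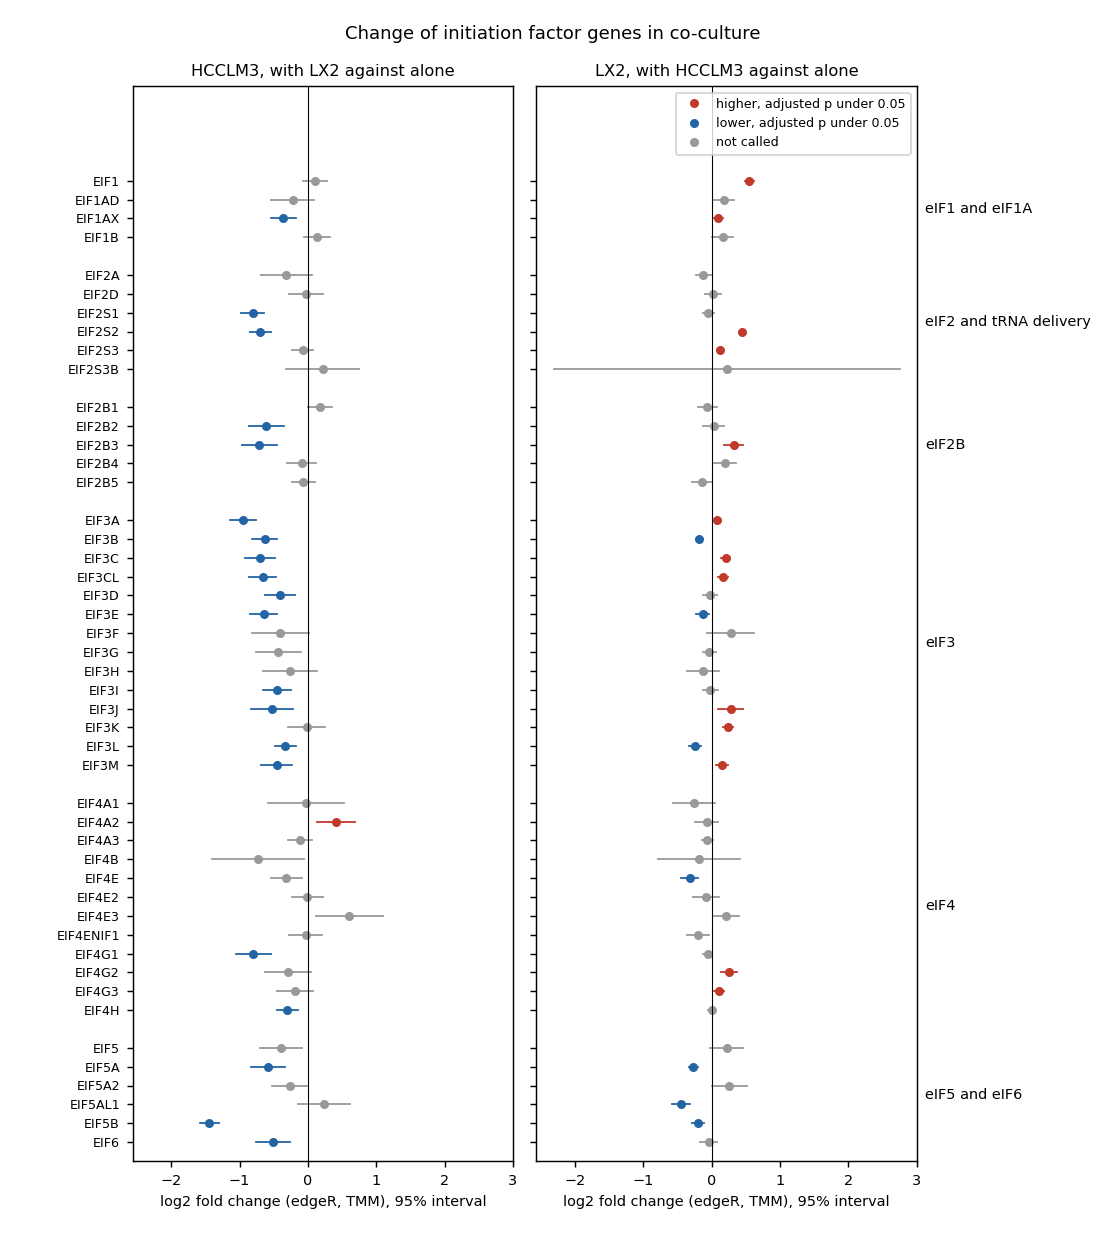
Log2 fold change of each tested initiation factor gene in co-culture against alone, HCCLM3 on the left and LX2 on the right, with bars for the 95% interval (edgeR, TMM, 3 libraries a group). Genes are grouped by factor. In HCCLM3 the blue points of called falls take 10 of the 14 eIF3 rows and reach -1.44 at EIF5B, while in LX2 points lie between -0.45 and 0.55.

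**Figure D2:**
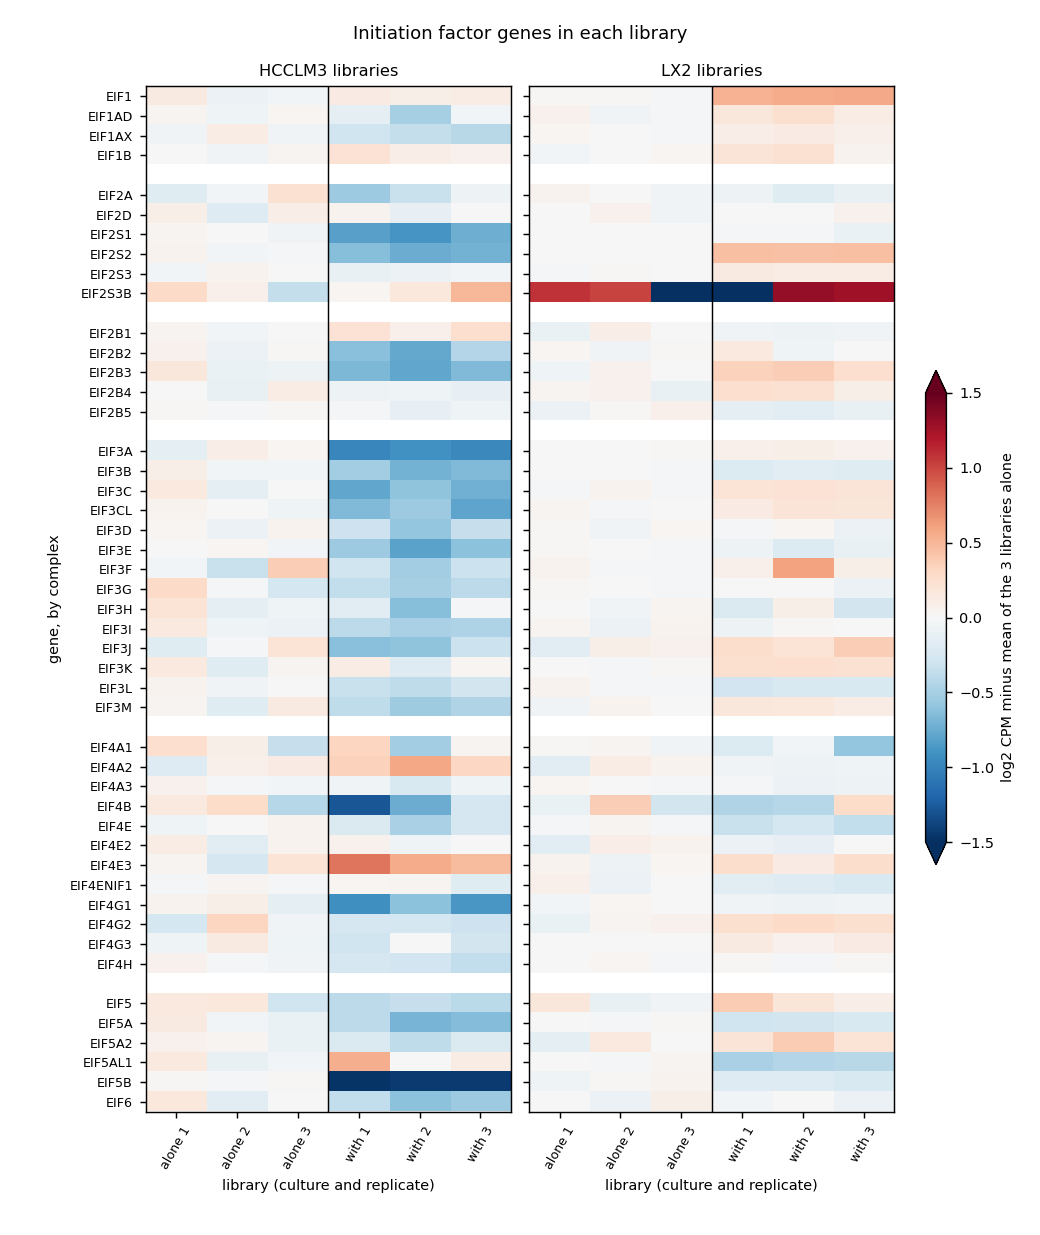
TMM-scaled log2 CPM of each gene in each library minus the mean of the 3 libraries of that line alone. Colours end at 1.5 in either direction and larger values take the end colour. The 3 co-cultured HCCLM3 libraries share blue rows such as EIF3A, EIF2S1, EIF2S2, EIF4G1 and EIF5B, and EIF2S3B in LX2 splits within both groups.

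Transcripts of the translation machinery often begin with a C and a run of pyrimidines, the 5′ terminal oligopyrimidine (TOP) motif through which mTOR signalling and LARP1 set their translation. RefSeq start sites (GRCh38.p14) were matched for 42 of the 49 genes, and not for EIF2S2, EIF3A, EIF3CL, EIF3E, EIF3G, EIF3H and EIF3L. A C at the start base followed by at least 4 C or T was found at a start of 10 members, EIF2A, EIF2D, EIF2S3, EIF2S3B, EIF3D, EIF3F, EIF3K, EIF3M, EIF4A2 and EIF4B. That is 23.8% of the matched members, where 5.14% of 27305 genes and 4.07% of 35116 promoters have it. The 5 of them that passed the test in a line are shown from 10 bases before the start to 15 from it, 5′ to 3′ on the gene's strand, with the pyrimidine run in capitals.
EIF2S3 chrX:24054946-24054970 (+ strand): gatttccttcCTCTTTTggcaacat
EIF3D chr22:36529152-36529176 (- strand): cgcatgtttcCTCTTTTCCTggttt
EIF3K chr19:38619178-38619202 (+ strand): tttccaccacCTCTTCCTgttcccg
EIF3M chr11:32583821-32583845 (+ strand): gcccagttccCTTTTCCggtcggcg
EIF4A2 chr3:186783567-186783591 (+ strand): gcgccgctgtCTTTTCagtcgggcg
These genes did not share a direction. In HCCLM3 EIF3D and EIF3M were lower and EIF4A2 higher, with a median log2 fold change of -0.20 over the 10 genes with the run and -0.30 over the 31 tested without it. In LX2 EIF2S3, EIF3K and EIF3M were higher and none of the 10 lower, with a median of 0.072 beside -0.0074 over the 30 without it. The motif is a match of letters in a start window and not a measure of translation.

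The trimer eIF2 binds GTP and the initiator tRNA. Its alpha subunit, EIF2S1, is the one phosphorylated when stress kinases shut initiation down, EIF2S2 is the beta and EIF2S3 the gamma subunit. In HCCLM3 EIF2S1 and EIF2S2 fell, 2 of 6 genes in this group, while in LX2 EIF2S2 and EIF2S3 rose. The falls are 33.3%, where 11.6% of all genes and 21.8% of abundant protein-coding genes were lower. The rises are 33.3%, where 15.4% of all genes and 18.9% of abundant ones were higher. EIF2S1 (ENSG00000134001, chr14:67360151-67386516, + strand) stood at 26.1, 26.2 and 25.2 FPKM in HCCLM3 alone and 16.3, 15.9 and 17.4 FPKM in co-culture. All co-cultured libraries lay below all libraries alone, a 1.75-fold lower level after scaling (log2 fold change -0.81 ± 0.072, adjusted p = 0.00111). In LX2 EIF2S1 stood at 22.2, 22.0 and 22.2 FPKM alone and 22.3, 22.1 and 21.0 FPKM in co-culture, groups that overlapped (log2 fold change -0.052 ± 0.034, adjusted p = 0.301, 95% interval -0.13 to 0.029). Whether counting used strand is not recorded in the sources, and EIF2S1 shares 269 exonic bases with ATP6V1D on the other strand.

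EIF2S2 (ENSG00000125977, chr20:34088309-34112243, - strand) moved in opposite directions in the lines. In HCCLM3 it stood at 153, 148 and 150.3 FPKM alone and 107, 103 and 103 FPKM in co-culture, a fall to 0.617 of the level after scaling (log2 fold change -0.70 ± 0.064, adjusted p = 0.00121). In LX2 it stood at 116, 118 and 118 FPKM alone and 164, 162 and 164 FPKM in co-culture, 1.36-fold higher (log2 fold change 0.45 ± 0.020, adjusted p = 2.42e-05). No library of one group reached the other group in either line. EIF2S3, with the pyrimidine run above, rose in LX2 from 131 ± 1.89 (mean ± SD, n = 3) to 145 ± 1.58 FPKM (log2 fold change 0.12 ± 0.020, adjusted p = 0.00515), and in HCCLM3 its groups overlapped at 32.6 ± 1.62 and 34.7 ± 1.13 FPKM (adjusted p = 0.442).

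EIF2S3B is a copy of EIF2S3 whose coding sequence is 98.2% identical over 1416 aligned bases (GENCODE 29), so reads could be split between them. Its counts in LX2 were 1416, 1272 and 157 alone and 122, 1780 and 1763 in co-culture. Alone replicate 3 and co-culture replicate 1 were low and the other 4 libraries high, so that the groups overlapped (log2 fold change 0.22 ± 1.05, adjusted p = 0.900). With copies and named pseudogenes summed into their parent, an alternative added after the data were seen, EIF2S3 in LX2 gave 0.13 ± 0.025, adjusted p = 0.0101. EIF2A and EIF2D, which deliver initiator tRNA outside the eIF2 route, did not pass the test, with log2 fold changes of -0.31 and -0.026 in HCCLM3 and -0.12 and 0.020 in LX2.

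The eIF2B complex exchanges GDP for GTP on eIF2 and is the target that phosphorylated eIF2 blocks. In HCCLM3 2 of its 5 genes fell, EIF2B2 and EIF2B3, and in LX2 1 rose, EIF2B3. The falls are 40.0%, where 11.6% of all genes and 21.8% of abundant protein-coding genes were lower. The rise is 20.0%, where 15.4% of all genes and 18.9% of abundant ones were higher. EIF2B3 (gamma subunit, ENSG00000070785, chr1:44850522-44986722, - strand) stood at 8.84, 7.57 and 7.71 FPKM in HCCLM3 alone and 5.57, 5.33 and 5.67 FPKM with LX2 (log2 fold change -0.71 ± 0.11, adjusted p = 0.00582). Its level was 8.01, 8.78 and 8.46 FPKM in LX2 alone and 10.9, 11.1 and 10.2 FPKM with HCCLM3 (log2 fold change 0.32 ± 0.059, adjusted p = 0.00788). Groups did not overlap in either line, and the order was opposite. EIF2B2 (beta subunit) stood at 7.68, 7.11 and 7.66 FPKM in HCCLM3 alone and 5.36, 4.999 and 6.16 FPKM in co-culture (log2 fold change -0.61 ± 0.11, adjusted p = 0.0100). Its LX2 level was 6.69, 6.35 and 6.64 FPKM alone and 7.40, 6.40 and 6.69 FPKM in co-culture, where groups overlapped. EIF2B1, EIF2B4 and EIF2B5 had log2 fold changes of 0.18, -0.090 and -0.065 in HCCLM3 and -0.063, 0.19 and -0.14 in LX2, none called. With library totals EIF2B1 was called higher in HCCLM3 (0.36 ± 0.070, adjusted p = 0.0143).

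EIF1 and EIF1A sit on the small subunit and hold it open for scanning until the start codon pairs. In LX2 EIF1 (ENSG00000173812, chr17:41688885-41692668, + strand) rose 1.46-fold, from 61.4, 61.7 and 59.7 FPKM alone to 89.7, 91.3 and 92.1 FPKM in co-culture (log2 fold change 0.55 ± 0.026, adjusted p = 2.90e-05). It was the largest rise of any member in LX2, and the groups lay far apart. In HCCLM3 EIF1 stood at 97.9, 86.4 and 89.7 FPKM alone and 109.7, 111 and 110.1 FPKM in co-culture. These FPKM did not overlap either, yet the TMM-scaled change was not called (log2 fold change 0.10 ± 0.076, adjusted p = 0.378), while with library totals it was (0.28 ± 0.068, adjusted p = 0.0285).

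EIF1AX, the X-linked gene of eIF1A, fell in HCCLM3 from 21.7, 25.01 and 22.5 to 20.6, 20.4 and 19.4 FPKM (log2 fold change -0.36 ± 0.077, adjusted p = 0.0193). In LX2 it rose from 38.9, 38.1 and 37.8 to 41.9, 42.5 and 41.1 FPKM (log2 fold change 0.10 ± 0.029, adjusted p = 0.0394). Both are small steps, and neither call held throughout: the fall was lost without co-cultured replicate 2 or 3 and with library totals (adjusted p 0.00275 to 0.142 over all alternatives), and the rise was lost without any single library, without a count filter, by DESeq2 and with a replicate block (0.0157 to 0.124). EIF1B, a paralog of EIF1, and EIF1AD, an eIF1A domain protein, were not called in either line, with log2 fold changes of 0.13 and -0.22 in HCCLM3 and 0.16 and 0.18 in LX2. EIF1AY was not called in HCCLM3 and did not pass the count filter in LX2.

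eIF3 is the largest initiation factor, a scaffold on the small subunit that binds eIF4G and the other factors. It showed the broadest change in HCCLM3: 10 of its 14 genes fell, and all 14 had a log2 fold change below 0, from -0.95 to -0.019, with a median of -0.46. The falls are 71.4%, where 11.6% of all genes and 21.8% of abundant protein-coding genes were lower. With library totals 13 of the 14 stayed below 0 and 6 were called lower, with EIF3K above 0. In LX2 6 of the 14 rose, 3 fell, and the median was 0.030. There 64.3% were called, where 31.9% of all genes and 45.1% of abundant ones were. EIF3A, the largest subunit (ENSG00000107581, chr10:119033670-119080823, - strand), stood at 48.6, 58.6 and 56.4 FPKM in HCCLM3 alone and 30.5, 33.0 and 31.2 FPKM in co-culture, 1.93-fold lower after scaling (log2 fold change -0.95 ± 0.078, adjusted p = 0.000924). Its LX2 level was 65.5, 65.9 and 66.9 FPKM alone and 71.4, 71.7 and 70.6 FPKM in co-culture (log2 fold change 0.078 ± 0.020, adjusted p = 0.0267). Groups did not overlap in either line, but the rise in LX2 was only 1.06-fold and was lost in 5 of 6 fits that left out a library, those without replicate 1 or 2 alone or any of the 3 in co-culture, and also without a count filter, by DESeq2 and with a replicate block (adjusted p 0.00755 to 0.0830 over all alternatives).

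EIF3C and EIF3CL encode the same subunit. Their coding sequences were identical over all 2739 aligned bases, so how reads were shared between them is uncertain. Each is counted as a member, though the 2 are not independent measurements. EIF3C stood at 69.3, 58.5 and 64.4 FPKM in HCCLM3 alone and 41.2, 47.9 and 43.6 FPKM in co-culture (log2 fold change -0.70 ± 0.093, adjusted p = 0.00380), and EIF3CL gave a log2 fold change of -0.66 ± 0.083, adjusted p = 0.00319. In LX2 EIF3C stood at 49.3, 52.2 and 49.4 FPKM alone and 59.3, 59.4 and 58.9 FPKM in co-culture (log2 fold change 0.21 ± 0.029, adjusted p = 0.00253). EIF3CL stood at 148, 148 and 141 FPKM in HCCLM3 alone and 102, 114 and 94.3 FPKM in co-culture, and at 131, 124 and 126 and 141, 147 and 146 FPKM in LX2. Summed, the pair fell in HCCLM3 (-0.68 ± 0.079, adjusted p = 0.00249) and rose in LX2 (0.18 ± 0.019, adjusted p = 0.000764), as each member did.

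EIF3J and EIF3M also fell in HCCLM3 and rose in LX2. EIF3J, a loosely bound subunit, stood at 27.5, 32.0 and 37.2 FPKM in HCCLM3 alone and 22.9, 24.1 and 28.6 FPKM in co-culture, with overlapping FPKM (log2 fold change -0.52 ± 0.13, adjusted p = 0.0305). Its LX2 level was 25.6, 30.5 and 30.1 FPKM alone and 35.3, 33.6 and 37.6 FPKM in co-culture (log2 fold change 0.28 ± 0.078, adjusted p = 0.0377). EIF3M stood at 17.4, 15.4 and 19.2 FPKM in HCCLM3 alone and 14.6, 13.6 and 14.2 FPKM in co-culture (log2 fold change -0.46 ± 0.098, adjusted p = 0.0190). Its LX2 libraries read 22.7, 24.4 and 23.4 FPKM alone and 27.1, 26.7 and 26.0 FPKM in co-culture (log2 fold change 0.15 ± 0.036, adjusted p = 0.0221). These 4 calls were near the threshold. Each EIF3J and EIF3M fall in HCCLM3 was lost in 4 of 6 fits that left out a library (adjusted p 0.00328 to 0.203 and 0.00134 to 0.111 over all alternatives), and the rises in LX2 in 5 and 4 of 6 (0.00981 to 0.114 and 0.0106 to 0.0721). The libraries left out in those fits were, for EIF3J, HCCLM3 alone replicates 2 and 3 and co-cultured 1 and 2, and LX2 alone 1 and 3 and co-cultured 1, 2 and 3. For EIF3M they were HCCLM3 alone 1 and 3 and co-cultured 2 and 3, and LX2 alone 1 and 3 and co-cultured 1 and 2.

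The subunits EIF3B, EIF3E and EIF3L were called lower in both lines, EIF3E in LX2 only just. EIF3B, a core subunit, had log2 fold changes of -0.63 ± 0.076, adjusted p = 0.00276 in HCCLM3 and -0.18 ± 0.023, adjusted p = 0.00174 in LX2. EIF3E gave -0.65 ± 0.082, adjusted p = 0.00337 in HCCLM3 and -0.13 ± 0.039, adjusted p = 0.0448 in LX2, where the call was lost in every leave-one-out fit but the one without co-cultured replicate 1, and in 7 of 9 other alternatives, library totals, no count filter, DESeq2, the 3 limma fits and the replicate block (adjusted p 0.0408 to 0.182 over all alternatives). The fall of EIF3E in HCCLM3 was kept in every one. EIF3L gave -0.33 ± 0.067, adjusted p = 0.0168 in HCCLM3, lost without replicate 3 alone or co-cultured replicate 1 or 2 and with library totals (0.00205 to 0.139), and -0.25 ± 0.035, adjusted p = 0.00277 in LX2. EIF3L shares 1767 of its 4296 exonic bases with AL022311.1 on the same strand, so its counts are uncertain. EIF3D (-0.41 ± 0.091, adjusted p = 0.0221) and EIF3I (-0.45 ± 0.085, adjusted p = 0.0127) fell in HCCLM3 and were not called in LX2. EIF3D was lost without alone replicate 1 or 3 or co-cultured replicate 3, with library totals and in the 3 limma fits (0.00309 to 0.111) and EIF3I without co-cultured replicate 3 and by limma on log2(FPKM + 0.1) (0.000537 to 0.0544).

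EIF3K rose in LX2 with the smallest adjusted p of the eIF3 genes there, from 36.7, 35.9 and 36.9 FPKM alone to 44.2, 44.2 and 43.8 FPKM in co-culture (log2 fold change 0.24 ± 0.029, adjusted p = 0.00136). In HCCLM3 its groups overlapped, at 58.9, 48.3 and 56.8 FPKM alone and 65.2, 54.3 and 62.1 FPKM in co-culture (log2 fold change -0.019 ± 0.12, adjusted p = 0.927). EIF3F, EIF3G and EIF3H were not called in either line, with log2 fold changes of -0.40, -0.43 and -0.27 in HCCLM3 and 0.28, -0.031 and -0.13 in LX2. Without alone replicate 3 EIF3G was called lower in HCCLM3 (-0.57 ± 0.12, adjusted p = 0.0323). For EIF3F and EIF3H 1 library stood apart, LX2 co-culture replicate 2, as the FPKM of that group show, 9.47, 13.6 and 9.49 for EIF3F and 22.5, 27.8 and 21.7 for EIF3H in replicates 1, 2 and 3. Without it EIF3F in LX2 gave 0.082 ± 0.044, adjusted p = 0.242 and EIF3H was called lower (-0.25 ± 0.042, adjusted p = 0.0121).

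The eIF4 group holds the cap-binding protein eIF4E, the scaffold eIF4G, the helicase eIF4A and its helpers eIF4B and eIF4H. In HCCLM3 2 of 12 tested genes fell, EIF4G1 and EIF4H, and EIF4A2 rose. Falls there were 16.7%, where 11.6% of all genes and 21.8% of abundant protein-coding genes were lower. EIF4A2 makes 8.33%, where 10.1% of all genes and 8.79% of abundant ones were higher. In LX2 EIF4G2 and EIF4G3 rose and EIF4E fell. Rises there were 16.7%, where 15.4% of all genes and 18.9% of abundant ones were higher. EIF4E makes 8.33%, where 16.6% and 26.2% were lower. No share exceeded that of abundant genes. The E-box CACGTG, the palindrome bound by MYC and related factors, was searched in the 300 bases around each RefSeq start (250 before it to 50 from it) and was found in 10 of the 42 matched members, EIF1B, EIF2B3, EIF3F, EIF3K, EIF4A3, EIF4B, EIF4E, EIF4G1, EIF4H and EIF5A2. That is 23.8% of them, where 8.77% of genes and 7.26% of promoters have it. Of the eIF4 genes with an E-box, EIF4E was called lower in LX2 only, and EIF4G1 and EIF4H in HCCLM3 only. EIF4E and EIF4G1 each have 2, shown in capitals with 10 bases on either side on the gene's strand.
EIF4E chr4:98929343-98929368 (- strand): acccatcggcCACGTGaccagtcctt
EIF4E chr4:98929190-98929215 (- strand): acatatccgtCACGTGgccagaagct
EIF4G1 chr3:184314452-184314477 (+ strand): ctgtggctgtCACGTGacggggcggg
EIF4G1 chr3:184314529-184314554 (+ strand): ctgcgccggtCACGTGggggcgccgg
They begin 225 and 72 bases before the start of EIF4E and 144 and 67 before that of EIF4G1. Of the 10 genes with an E-box 3 fell in HCCLM3, and 2 rose and 1 fell in LX2. Of those without one, 12 of 31 fell and 1 rose in HCCLM3, and 8 of 30 rose and 4 fell in LX2. The median log2 fold change in HCCLM3 was -0.31 over these 10 and -0.29 over the 31 tested genes without one. The motif TGATGNAA on either strand, which the stress factor ATF4 can bind, was in the window of 1 member, EIF4E3, 2.38% of them, where 4.46% of genes and 3.62% of promoters have it.

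EIF4G1, the main scaffold between cap and small subunit (ENSG00000114867, chr3:184314495-184335357, + strand), stood at 86.5, 91.1 and 77.9 FPKM in HCCLM3 alone and 49.7, 63.4 and 51.9 FPKM in co-culture, 1.74-fold lower after scaling (log2 fold change -0.80 ± 0.11, adjusted p = 0.00407). In LX2 its groups overlapped, at 38.2, 40.0 and 39.5 FPKM alone and 38.7, 37.7 and 38.7 FPKM in co-culture (log2 fold change -0.059 ± 0.027, adjusted p = 0.144, 95% interval -0.12 to 0.0047). EIF4G2, known as DAP5, which drives cap-independent initiation, rose in LX2 from 103, 114 and 117 to 134, 138 and 134 FPKM (log2 fold change 0.25 ± 0.046, adjusted p = 0.00719). In HCCLM3 EIF4G2 stood at 47.7, 73.5 and 57.1 FPKM alone and 54.5, 55.4 and 53.0 FPKM in co-culture, with the spread alone larger than the gap (log2 fold change -0.29 ± 0.14, adjusted p = 0.191). EIF4G3, the least abundant scaffold in HCCLM3, rose slightly in LX2 (log2 fold change 0.11 ± 0.029, adjusted p = 0.0335), a call kept in 1 of 6 leave-one-out fits, the one without co-cultured replicate 2, and lost without a count filter and with a replicate block (0.0141 to 0.103), and stood at -0.19 in HCCLM3.

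EIF4E, which binds the cap itself, fell in LX2 from 2.80, 2.96 and 2.85 FPKM alone to 2.32, 2.43 and 2.27 FPKM in co-culture (log2 fold change -0.32 ± 0.051, adjusted p = 0.00407). All co-cultured libraries were lower than all libraries alone. In HCCLM3 it stood at 4.44, 4.77 and 4.98 FPKM alone and 4.50, 3.83 and 4.44 FPKM in co-culture, which overlapped (log2 fold change -0.32 ± 0.094, adjusted p = 0.0545 by edgeR and -0.32 ± 0.12, adjusted p = 0.0321 by DESeq2). EIF4E2, which competes for the cap, stood at -0.0068 in HCCLM3 and -0.076 in LX2 on the log2 scale. EIF4E3, a scarce cap-binding paralog, stood at 0.149, 0.125 and 0.173 FPKM in HCCLM3 alone and 0.286, 0.248 and 0.231 FPKM in co-culture, with no overlap, but was not called (log2 fold change 0.61 ± 0.21, adjusted p = 0.0804); with library totals it was (0.78 ± 0.21, adjusted p = 0.0372).

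Of the helicases, EIF4A2 was the 1 member that rose in HCCLM3, from 10.99, 13.6 and 14.1 FPKM alone to 17.9, 21.9 and 17.8 FPKM in co-culture (log2 fold change 0.41 ± 0.12, adjusted p = 0.0462). Groups did not overlap, but the adjusted p was close to the threshold and the call was lost without any 1 of the 6 libraries and without a count filter (adjusted p 0.0147 to 0.1197 over all alternatives). In LX2 EIF4A2 stood at 20.7, 24.98 and 24.2 FPKM alone and 22.8, 22.4 and 22.7 FPKM in co-culture, which overlapped (log2 fold change -0.069 ± 0.071, adjusted p = 0.513), though without alone replicate 1 it was called lower (-0.15 ± 0.034, adjusted p = 0.0295). EIF4A1, its close paralog and the major helicase, stood at 80.9, 74.4 and 55.4 FPKM in HCCLM3 alone and 96.3, 55.2 and 79.9 FPKM in co-culture, a spread wider than any gap (log2 fold change -0.030 ± 0.23, adjusted p = 0.941). EIF4A1 shares 1586 of its 5316 exonic bases with the read-through gene SENP3-EIF4A1, so its counts are uncertain, and small nucleolar RNAs lie in both helicase genes. EIF4A3, which belongs to the exon junction complex, was not called, at -0.11 in HCCLM3 and -0.061 in LX2.

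EIF4H fell in HCCLM3 from 178, 172 and 169 to 160.2, 162 and 151 FPKM (log2 fold change -0.30 ± 0.065, adjusted p = 0.0199), a call lost without alone replicate 1 or co-cultured replicate 1 or 3, with library totals and in the 3 limma fits (0.00526 to 0.204). In LX2 it stood at 107 ± 1.54 and 109 ± 2.20 FPKM, with a 95% interval for the log2 fold change of -0.056 to 0.065. EIF4B, the other helper, varied widely within groups, at 92.7, 104 and 64.3 FPKM in HCCLM3 alone and 38.6, 57.9 and 80.5 FPKM in co-culture. Its LX2 libraries spread likewise, at 59.4, 82.5 and 52.6 FPKM alone and 47.7, 48.2 and 78.5 FPKM in co-culture. The log2 fold change of EIF4B in HCCLM3 was -0.73 ± 0.28, adjusted p = 0.116 by edgeR, and -0.73 ± 0.27, adjusted p = 0.0280 by DESeq2. EIF4ENIF1, which carries eIF4E into the nucleus, was not called, at -0.032 in HCCLM3 and -0.20 in LX2.

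EIF5B carried the largest change of any member. The gene (ENSG00000158417, chr2:99337371-99401326, + strand) encodes the GTPase that joins the large subunit to the small one at the start codon. It stood at 41.6, 41.4 and 43.0 FPKM in HCCLM3 alone and 16.8, 17.7 and 17.4 FPKM in co-culture. All co-cultured libraries lay far below all libraries alone, and the level was 2.72-fold lower in co-culture after scaling (log2 fold change -1.44 ± 0.059, adjusted p = 0.000149). In LX2 EIF5B stood at 26.7, 28.1 and 28.8 FPKM alone and 25.02, 24.9 and 24.3 FPKM in co-culture, a fall as well but of 1.15-fold (log2 fold change -0.20 ± 0.035, adjusted p = 0.00658). The HCCLM3 call held in all 6 leave-one-out fits and all 9 other alternatives, and so did the LX2 call. EIF5B shares 852 of its 7883 exonic bases with REV1 on the other strand, and whether counting used strand is not recorded.

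EIF5, which triggers GTP hydrolysis on eIF2 at the start codon, was not called in either line. It stood at 10.0, 10.4 and 7.56 FPKM in HCCLM3 alone and 7.80, 8.25 and 7.84 FPKM in co-culture, with alone replicate 3 below all co-cultured libraries (log2 fold change -0.39 ± 0.13, adjusted p = 0.0743). Without that library EIF5 was called lower (-0.54 ± 0.081, adjusted p = 0.0142). Its LX2 level was 11.7, 9.61 and 9.98 FPKM alone and 13.8, 12.02 and 11.3 FPKM in co-culture (log2 fold change 0.22 ± 0.10, adjusted p = 0.148). EIF6, which keeps the large subunit from joining too early, fell in HCCLM3 from 224, 187 and 209 to 176, 154 and 158 FPKM (log2 fold change -0.51 ± 0.10, adjusted p = 0.0159), a call lost without co-cultured replicate 2 or 3 and in 2 limma fits (0.000642 to 0.0699). In LX2 EIF6 stood at 81.4 ± 5.21 and 80.6 ± 2.21 FPKM, which overlapped. EIF6 shares 284 of its 1631 exonic bases with AL121753.1 on the same strand, so its counts are uncertain.

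EIF5A, the hypusine-bearing factor that helps ribosomes through difficult peptide bonds, fell in both lines. In HCCLM3 it stood at 252, 230.4 and 222 FPKM alone and 198, 165 and 167 FPKM in co-culture (log2 fold change -0.58 ± 0.10, adjusted p = 0.0111), a call lost without co-cultured replicate 3 (adjusted p 0.000125 to 0.0509 over all alternatives). In LX2 it stood at 169.8, 167 and 171 FPKM alone and 141, 142 and 148 FPKM in co-culture (log2 fold change -0.27 ± 0.026, adjusted p = 0.000589). No groups overlapped. EIF5AL1, a copy of EIF5A with 98.9% identity over 462 aligned coding bases, so that reads could be split, fell in LX2 from 5.75, 5.66 and 5.98 to 4.23, 4.34 and 4.42 FPKM (log2 fold change -0.45 ± 0.057, adjusted p = 0.00169). In HCCLM3 EIF5AL1 stood at 5.23, 4.52 and 4.76 FPKM alone and 7.77, 5.53 and 5.87 FPKM in co-culture (log2 fold change 0.24 ± 0.16, adjusted p = 0.338). Summed with its copies, EIF5A kept its fall in HCCLM3 (-0.52 ± 0.11, adjusted p = 0.0181) and in LX2 (-0.28 ± 0.027, adjusted p = 0.000586). EIF5A2, the less abundant paralog, was not called in either line, at -0.27 in HCCLM3 and 0.26 in LX2.

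**Figure D3:**
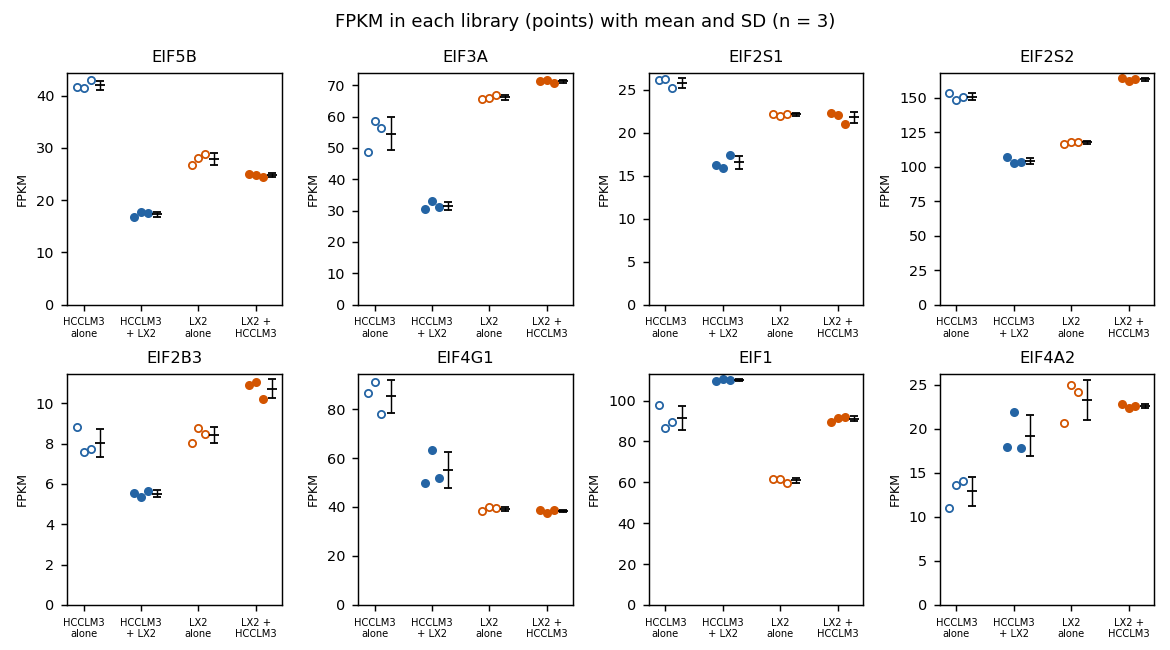
Deposited FPKM of 8 initiation factor genes in each library (points, open for alone and filled for co-culture), with the mean and SD of the 3 libraries of a group beside them. EIF5B, EIF3A, EIF2S1, EIF2S2, EIF2B3 and EIF4G1 are lower in every co-cultured HCCLM3 library than in any alone, and EIF1, EIF2S2 and EIF2B3 are higher in every co-cultured LX2 library. Levels of the 2 lines come from separate tables.

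Whether co-culture changed a gene differently in the lines was tested as an interaction over all 12 libraries, the change in HCCLM3 minus the change in LX2. Of 48 tested members 24 were lower in this difference and 2 higher, where 11.3% of all 21959 genes tested were lower, 9.39% higher and 20.7% called. Of 9030 abundant protein-coding genes 21.8% were lower, 13.2% higher and 35.0% called. The members' median difference was -0.43 and that of all genes 0.0078. Without HCCLM3 alone replicate 3, co-cultured replicate 2 or co-cultured replicate 3, 24, 22 and 22 members were lower. Of the 24, 8 fell in HCCLM3 and rose in LX2 (EIF1AX, EIF2B3, EIF2S2, EIF3A, EIF3C, EIF3CL, EIF3J and EIF3M), 3 were called lower in both lines but further in HCCLM3 (EIF3B, EIF3E and EIF5B), 7 were called as a fall in HCCLM3 and not in LX2 (EIF2B2, EIF2S1, EIF3D, EIF3I, EIF4G1, EIF4H and EIF6), and 3 as a rise in LX2 and not in HCCLM3 (EIF1, EIF2S3 and EIF4G2). EIF5 and EIF5A2 were called in the difference and in neither line by itself. EIF1AY is the last of the 24, with an adjusted p (0.0462) near the threshold that passed it in 1 of 12 fits without a library, the one without LX2 co-culture replicate 2. Leaving EIF1AY aside, the largest differences were those of EIF5B (-1.28 ± 0.061, adjusted p = 4.23e-07), EIF2S2 (-1.18 ± 0.063, adjusted p = 7.94e-07), EIF2B3 (-1.06 ± 0.12, adjusted p = 0.000151) and EIF3A (-1.06 ± 0.078, adjusted p = 6.92e-06). EIF4A2 (0.45 ± 0.14, adjusted p = 0.0456) and EIF5AL1 (0.65 ± 0.18, adjusted p = 0.0291) were the 2 higher ones.

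EIF5A and EIF3L, which fell in both lines, were not called in the difference, at -0.34 ± 0.12, adjusted p = 0.0647 with a 95% interval of -0.60 to -0.082 for EIF5A, and -0.11 ± 0.074, adjusted p = 0.328 with -0.28 to 0.049 for EIF3L. EIF3K and EIF4G3, called as rises in LX2 and not in HCCLM3, were not shown to differ between lines either, at -0.29 ± 0.13, adjusted p = 0.146 and -0.33 ± 0.11, adjusted p = 0.0659, and EIF4E, called as a fall in LX2, gave -0.025 ± 0.11, adjusted p = 0.957. Without 1 library the difference was called for EIF5A (-0.44 ± 0.092, adjusted p = 0.00813, without HCCLM3 co-culture replicate 1), EIF3K (-0.38 ± 0.11, adjusted p = 0.0387, without HCCLM3 alone replicate 2) and EIF4G3 (-0.43 ± 0.088, adjusted p = 0.00772, without HCCLM3 co-culture replicate 2). With library totals in place of TMM the split of the difference was 16 lower and 3 higher, and the median over all genes moved to 0.18. EIF2S3, EIF3D, EIF4G2, EIF4H, EIF5, EIF5A2, EIF6 and EIF1AY lost their call there. Beside EIF1AY, 5 calls near the threshold were lost in several fits that left out 1 library. That of EIF4A2 was kept in 3 of 12 such fits, those without HCCLM3 alone replicate 3, HCCLM3 co-culture replicate 3 or LX2 alone replicate 1 (adjusted p 0.0132 to 0.108 over all alternatives). That of EIF5AL1 was kept in 4, those without HCCLM3 alone replicate 1 or any co-cultured HCCLM3 library (0.00319 to 0.0678). That of EIF4G2 was lost in 7, those without HCCLM3 co-culture replicate 2 or 3, LX2 alone replicate 1 or 2, or any co-cultured LX2 library (0.00395 to 0.208). EIF5 lost its call in 7 as well, those without HCCLM3 alone replicate 1 or 2, HCCLM3 co-culture replicate 1 or 3, LX2 alone replicate 2 or 3, or LX2 co-culture replicate 1 (0.00281 to 0.128). EIF5A2 lost it in 5, those without HCCLM3 alone replicate 1, HCCLM3 co-culture replicate 2, LX2 alone replicate 1 or 3, or LX2 co-culture replicate 2 (0.00273 to 0.102). The other 20 members that were lower kept their call in all 12. EIF1AD, EIF2B4, EIF3F and EIF3G, not called with all libraries, were called lower without HCCLM3 co-culture replicate 3 for EIF1AD, HCCLM3 alone replicate 2 for EIF2B4 and EIF3F, and HCCLM3 alone replicate 3 for EIF3G (-0.52 ± 0.15, adjusted p = 0.0402; -0.36 ± 0.11, adjusted p = 0.0403; -0.86 ± 0.23, adjusted p = 0.0262; -0.56 ± 0.12, adjusted p = 0.00846).

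**Figure D4:**
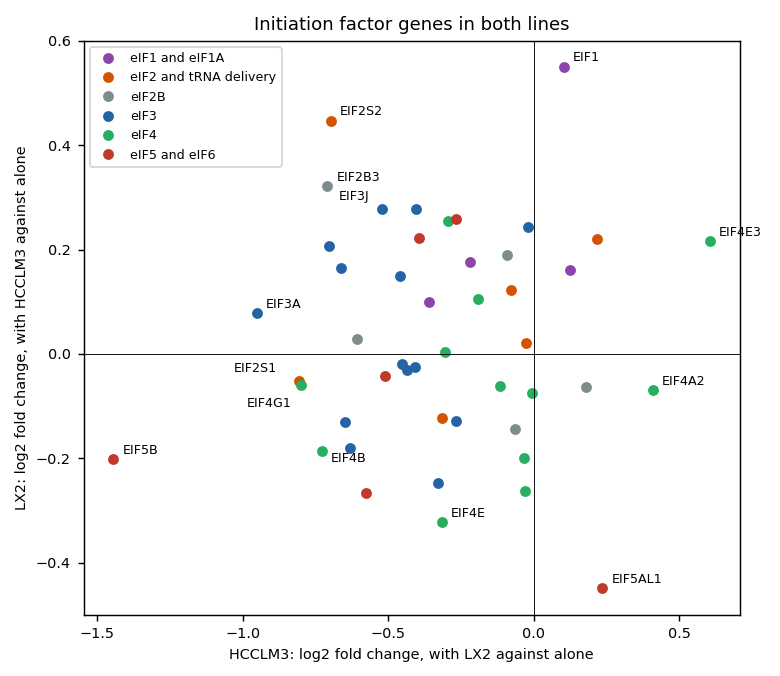
Log2 fold change in co-culture of the 47 initiation factor genes tested in both lines, HCCLM3 on the horizontal and LX2 on the vertical axis, coloured by factor. Points at the upper left, such as EIF2S2, EIF2B3 and EIF3J, were lower in HCCLM3 and higher in LX2, EIF5B lies alone at the far left, and EIF1 at the top.

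Several factors have paralogs or related genes, some with other roles, and their proportions were compared per library as shares of summed FPKM, over 12 shares with the exact two-sided permutation test, whose smallest p with 3 against 3 is 0.1 (0.15 after Benjamini-Hochberg adjustment here). No share can therefore pass a threshold of 0.05. Among the eIF4G scaffolds EIF4G1 held 57.4% ± 4.58 alone and 48.2% ± 2.68 in co-culture (SD, n = 3) in HCCLM3, and EIF4G2 held 39.6% ± 4.61 alone and 47.9% ± 2.88 in co-culture. EIF4G2 was the larger share in 2 of the 3 co-cultured libraries and in none of the 3 alone by FPKM. By raw counts, which are not divided by length, EIF4G1 and EIF4G2 had 34255 and 36412 counts in co-cultured replicate 1, 45235 and 38340 in replicate 2, and 36154 and 35797 in replicate 3, so EIF4G2 was larger in 1 of the 3. In LX2 EIF4G2 led from the start, with EIF4G1 at 23.2% ± 0.636 alone and 19.8% ± 0.418 in co-culture. Groups of the EIF4G1 share did not overlap in either line (p = 0.1 by the exact permutation test in both).

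Among the cap-binding proteins, EIF4E held 35.4% ± 2.70 alone and 30.3% ± 1.32 in co-culture in HCCLM3 and 23.2% ± 1.11 alone and 19.8% ± 1.29 in co-culture in LX2, with EIF4E2 the larger share of FPKM in every library. The order rests on the division by length: in HCCLM3 alone EIF4E had 5805, 6062 and 5679 counts and EIF4E2 5483, 4521 and 4750. Groups did not overlap in either line (p = 0.1 by the exact permutation test). EIF1 held 77.4% ± 0.738 alone and 81.8% ± 1.06 in co-culture of the EIF1 and EIF1B sum in LX2, without overlap (exact permutation p = 0.1), and 82.4% ± 1.08 alone and 82.2% ± 0.663 in co-culture in HCCLM3, with overlap (exact permutation p = 0.9). EIF1 and EIF1B are 82.0% identical over 339 aligned coding bases. EIF4A1 held 84.1% ± 4.17 alone and 79.2% ± 6.72 in co-culture of the EIF4A1 and EIF4A2 sum in HCCLM3 and 70.0% ± 2.25 alone and 66.8% ± 4.33 in co-culture in LX2, and groups overlapped in both (exact permutation p = 0.4). EIF1AX held 75.8% ± 1.86 alone and 74.1% ± 3.41 in co-culture of the EIF1AX and EIF1AD sum in HCCLM3, with overlap (exact permutation p = 0.4), and 85.9% ± 0.355 alone and 85.2% ± 0.321 in co-culture in LX2 (exact permutation p = 0.1). EIF5A held over 98% of the EIF5A and EIF5A2 sum in every library, at 98.9% ± 0.0533 alone and 98.7% ± 0.115 in co-culture in HCCLM3 and 99.0% ± 0.103 alone and 98.6% ± 0.117 in co-culture in LX2, both without overlap (exact permutation p = 0.1).

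The lesser paralogs behind these shares had the following levels. EIF1B stood at 19.3, 18.9 and 20.4 FPKM in HCCLM3 alone and 24.99, 23.7 and 23.0 FPKM in co-culture, and at 17.3, 17.9 and 18.2 and 20.8, 21.3 and 18.9 FPKM in LX2. EIF1AD stood at 7.39, 7.09 and 7.58 FPKM in HCCLM3 alone and 7.32, 5.91 and 7.999 FPKM in co-culture, and at 6.58, 6.08 and 6.25 and 7.26, 7.58 and 6.96 FPKM in LX2. Both were somewhat higher in each co-cultured LX2 library than in any alone, without passing the test, and EIF1B passed it without co-culture replicate 3 (0.21 ± 0.054, adjusted p = 0.0435). EIF4E2 stood at 9.0, 7.63 and 8.94 FPKM in HCCLM3 alone and 9.81, 9.23 and 9.52 FPKM in co-culture, and at 7.52, 9.04 and 8.76 and 8.06, 7.84 and 8.61 FPKM in LX2. EIF4E3 in LX2 stood at 1.15, 1.06 and 1.13 FPKM alone and 1.37, 1.23 and 1.36 FPKM in co-culture, without overlap. EIF4G3 stood at 4.16, 4.92 and 4.32 FPKM in HCCLM3 alone and 3.999, 5.05 and 4.12 FPKM in co-culture, and at 18.3, 18.6 and 18.5 and 20.7, 19.6 and 20.4 FPKM in LX2. EIF4A1 in LX2 stood at 54.7, 55.8 and 52.4 FPKM alone and 48.0, 53.5 and 37.0 FPKM in co-culture, with overlap. EIF5A2 stood at 2.56, 2.59 and 2.37 FPKM in HCCLM3 alone and 2.39, 2.19 and 2.42 FPKM in co-culture, and at 1.51, 1.84 and 1.66 and 1.94, 2.21 and 1.96 FPKM in LX2, where the groups did not overlap.

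**Figure D5:**
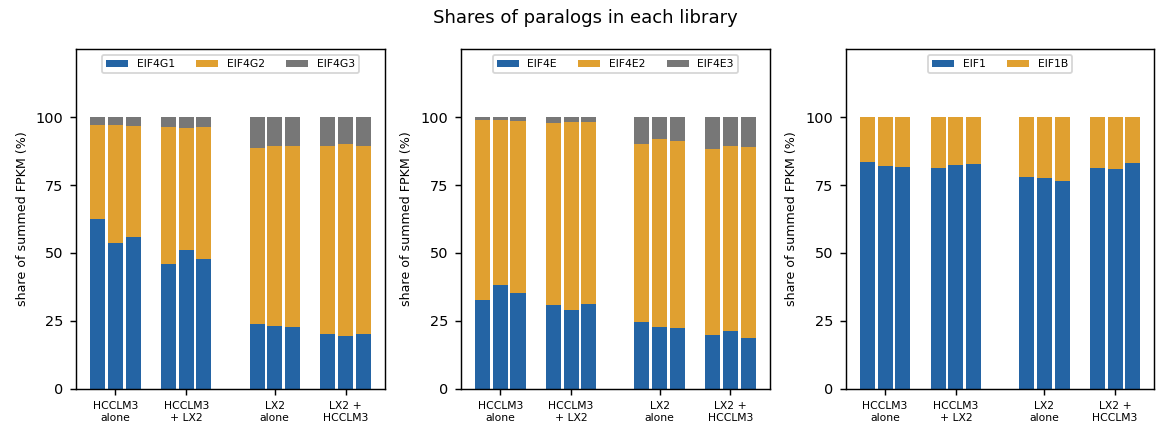
Share of each paralog in the summed FPKM of its family, in percent, for the eIF4G scaffolds, the eIF4E cap-binding proteins and EIF1 with EIF1B, with 1 bar per library. The EIF4G1 share is lower in each co-cultured HCCLM3 library than in any alone, and the EIF1 share is higher in each co-cultured LX2 library.

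Around the factors stand their regulators, a list of 41 genes of the eIF2 kinases and phosphatases, the eIF4E-binding proteins, the mTOR pathway and poly(A)-binding proteins. In HCCLM3 4 of the 41 rose and 7 fell, with a median log2 fold change of -0.087, where 21.7% of all genes and 30.6% of abundant protein-coding genes were called. DDIT4, a stress-induced brake on mTOR, stood at 7.28, 7.53 and 7.71 FPKM alone and 38.0, 34.7 and 37.6 FPKM in co-culture (log2 fold change 2.13 ± 0.083, adjusted p = 0.000131). RPTOR, the mTOR complex subunit that picks substrates, stood at 9.75, 10.5 and 9.58 FPKM alone and 5.78, 7.60 and 6.42 FPKM in co-culture (log2 fold change -0.76 ± 0.10, adjusted p = 0.00438). DHX29, a helicase for structured leaders, stood at 5.45, 6.05 and 5.38 FPKM alone and 3.41, 4.15 and 3.80 FPKM in co-culture (log2 fold change -0.74 ± 0.10, adjusted p = 0.00452). The 3 were the largest changes of the list in HCCLM3, and none had overlapping groups.

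In LX2 11 of 40 tested regulators rose and 4 fell, with a median of 0.017, where 31.9% of all genes and 45.1% of abundant ones were called. PPP1R15A, the inducible subunit that dephosphorylates eIF2 alpha, stood at 24.4, 23.6 and 23.4 FPKM alone and 49.8, 50.8 and 50.1 FPKM in co-culture (log2 fold change 1.05 ± 0.032, adjusted p = 4.86e-06). DDIT4 stood at 252, 249 and 251 FPKM alone and 507, 504 and 522 FPKM in co-culture (log2 fold change 0.998 ± 0.020, adjusted p = 1.09e-06), and rose further in HCCLM3 than in LX2 (difference 1.10 ± 0.071, adjusted p = 2.98e-06). MKNK2, a kinase of eIF4E, stood at 7.89, 8.90 and 8.79 FPKM alone and 16.7, 15.8 and 15.8 FPKM in co-culture (log2 fold change 0.89 ± 0.057, adjusted p = 9.42e-05). All co-cultured libraries were above those alone for the 3 genes. PPP1R15A was not called in HCCLM3, and its change differed between lines (difference -1.29 ± 0.064, adjusted p = 4.86e-07).

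Of 14 elongation and termination factors, 7 fell and none rose in HCCLM3, with a median of -0.32, where 11.6% of all genes and 21.8% of abundant ones were lower. The largest falls were those of ETF1, the release factor, at 38.2, 38.2 and 40.0 FPKM alone and 27.1, 27.5 and 27.4 FPKM in co-culture (log2 fold change -0.67 ± 0.060, adjusted p = 0.00112), of EEF1A1, which brings tRNA to the ribosome and has many pseudogene copies that could share its reads, at 1103, 1008 and 1089 FPKM alone and 801, 745 and 775 FPKM in co-culture (log2 fold change -0.63 ± 0.072, adjusted p = 0.00237), and of HBS1L, a ribosome rescue factor, at 3.10, 3.31 and 3.28 FPKM alone and 2.29, 2.40 and 2.60 FPKM in co-culture (log2 fold change -0.58 ± 0.084, adjusted p = 0.00532). In LX2 3 of the 14 rose and 3 fell, with a median of -0.11, where 31.9% of all genes and 45.1% of abundant ones were called. GSPT1, the partner of ETF1, stood at 45.5, 46.9 and 46.8 FPKM alone and 28.4, 28.3 and 32.1 FPKM in co-culture (log2 fold change -0.68 ± 0.053, adjusted p = 0.000217). EEF2K, the kinase that inhibits elongation factor EEF2, stood at 5.72, 5.77 and 5.83 FPKM alone and 8.20, 8.09 and 7.77 FPKM in co-culture (log2 fold change 0.44 ± 0.039, adjusted p = 0.000343). The first of these fell and the other rose, without overlap of groups. GSPT2, a retrocopy of GSPT1, stood at 0 in all 3 libraries of LX2 alone and at 0.142, 0.116 and 0.179 FPKM in co-culture (edgeR adjusted p = 0.0033, with no fold given against libraries at 0). The HCCLM3 libraries held GSPT2 at 10.5, 11.5 and 10.3 FPKM alone and 13.5, 12.996 and 13.8 FPKM in co-culture. Like HNF4A and COL6A3 it is thus a gene of HCCLM3 that was higher in co-cultured LX2, and the part of such reads in the LX2 values was not tested.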

How the data were processed

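Gene counts and FPKM were taken as deposited, from 1 table for each cell line, with 3 libraries a group. The exception is that FPKM was set to 0 wherever the count was 0. Bowtie 0.12.2, HISAT2 2.0 and StringTie 1.3.0 are named per the submitters' processing notes, without their roles. The deposited counts are whole numbers per gene, made by the authors, with no record here of how, or on which strand, reads were counted. The deposited FPKM are values per length and library that the authors computed, per the file headers, and they follow library totals. The notes name the mouse build mm8, while the rows of the tables carry human gene identifiers. Of 58394 HCCLM3 identifiers found in GENCODE 29 (GRCh38), 84.4% had the same start and 78.7% the same end. Coordinates are therefore given on GRCh38, for genes as deposited, and these can differ from GENCODE 29 at the ends.

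Counts were tested for each line with edgeR 4.0.16 (filterByExpr with a minimum count of 10, TMM, glmQLFit and glmQLFTest), and the difference between lines as an interaction over all 12 libraries. P-values were adjusted by Benjamini-Hochberg over all genes tested. Log2 fold changes are given ± SE with 95% intervals, and FPKM ± SD. For edgeR the SE was computed as the absolute log2 fold change over the square root of the F statistic of the test. The intervals rest on that SE. Folds printed beside log2 fold changes are those of the TMM-scaled fits and not ratios of FPKM. At the depth of these libraries the replicates set the precision: within groups, counts differed by a chi-square per degree of freedom of 35.9 to 90.9, so no library repeats another. Shares of paralogs were compared by the exact two-sided permutation test. The alternatives were RLE size factors, library totals, no count filter, DESeq2 1.42.0, limma 3.58.1 on log2(FPKM + 1) or log2(FPKM + 0.1), a replicate block, leaving out each library, and, added after the data were seen, copies summed into their parent gene. Only the edgeR fit was run on simulated counts, which were drawn from its own estimates of level and spread. The other steps were not tested in this way.

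Members and lists were chosen with earlier results of these data known. By rule, values in all libraries are given for the called member with the smallest adjusted p and the one with the largest change per factor group and line, members called in opposite directions in the lines, members called in the difference at an absolute value of at least 0.58, and paralog pairs; of the pathway lists, for the 3 called genes of largest change per line. Members named beyond the rule were chosen after their values were seen. Promoter windows are those of RefSeq on GRCh38.p14, and coding identities were computed from GENCODE 29 transcripts by alignment with Biopython 1.88.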

Additional observations from a re-analysis of the deposited data

Results flagged for a closer look

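The change in co-culture differed between the lines for 25 initiation factor genes with values, by the interaction test of edgeR over all 12 libraries (Benjamini-Hochberg adjustment over all genes tested). Values are the log2 fold change in HCCLM3 minus that in LX2. Of the eIF5, eIF5A, eIF5B and eIF6 genes, EIF5B stood at -1.28, EIF5 at -0.65, EIF5A2 at -0.56 and EIF6 at -0.50. Around eIF2, EIF2S2 stood at -1.18, EIF2S1 at -0.79 and EIF2S3 at -0.23, and of eIF2B, EIF2B3 stood at -1.06 and EIF2B2 at -0.67. Of eIF3, 9 of 14 genes differed: EIF3A at -1.06, EIF3C at -0.94, EIF3CL at -0.86, EIF3J at -0.83, EIF3M at -0.64, EIF3E at -0.55, EIF3B at -0.48, EIF3I at -0.46 and EIF3D at -0.42. Of the eIF4 group, EIF4G1 stood at -0.77, EIF4G2 at -0.58 and EIF4H at -0.34, and of eIF1 and eIF1A, EIF1AX at -0.49 and EIF1 at -0.48. In the other direction EIF4A2 stood at 0.45 and EIF5AL1 at 0.65. As given above, the calls of EIF4A2, EIF5AL1, EIF4G2, EIF5 and EIF5A2 were lost in several fits without 1 library. Those of EIF2S3, EIF3D, EIF4G2, EIF4H, EIF5, EIF5A2 and EIF6 were lost with library totals. The 6 red cell genes summed to 6468 to 8961 counts in the co-cultured HCCLM3 libraries and to no more than 112 in any other, and their part in these differences was not tested.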

How the results depend on the processing

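No called member reversed under any alternative, and 113 sign changes in 27 results concerned values called neither before nor after, whose reported size is at most 0.36 on the log2 scale. In HCCLM3 members lower numbered 12 by limma on log2(FPKM + 0.1) and 13 to 19 without 1 library, where 20 were called, and members higher numbered 5 with library totals, 0 without a count filter, 4 in each of the 3 limma fits and 0 without any 1 library. In LX2 8 to 10 members were higher without 1 library, where 13 were called. In the difference between lines members higher numbered 1 without a count filter, 5 by limma on log2(FPKM + 1), 4 by limma without a filter, 1 with copies summed and 0 to 2 without 1 library, where 2 were called. The share of raw counts in place of FPKM gave another change in 4 paralog shares: 2.81 percentage points for EIF1 (4.38 by FPKM), -4.81 for EIF4E (-3.33) and -0.85 for EIF5A (-0.42) in LX2, and -0.51 for EIF5A (-0.25) in HCCLM3. The cause was not tested.

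With a replicate block 1 member was higher and 21 lower in HCCLM3, 9 higher and 6 lower in LX2, and 2 higher and 27 lower in the difference. Same-numbered libraries of a line deviated together with a correlation of only -0.041 to 0.045, so the numbers do not pair them. Each HCCLM3 number correlated best with itself, and in LX2 1 of 3 did.

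Limits are the 3 libraries a group, a marker shift in co-cultured HCCLM3 whose part was not tested, and a scaling choice that moves HCCLM3 values by the shift of the median given above. How reads of near-identical copies were counted is not known. Depth did not limit the abundant members; EIF4E1B was not detectable at this depth, and EIF4E3 and EIF2S3B rest on low or uneven counts.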
